A study of Homo sapiens with 6 samples.

Results

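Genes of 3 DNA repair routes were followed in the triple-negative breast cancer line MDA-MB-231 and in Adriamycin-resistant (ADRr) cells derived from it. They were taken from the count table by symbol, and together they make up 8 of its 58735 genes. PRKDC, XRCC5, XRCC6, LIG4 and TP53BP1 belong to non-homologous end joining or its control, MSH6 to mismatch repair, and PARP1 and XRCC1 to the repair of single-strand breaks. RNA had been sequenced from parent MDA-MB-231 cells, labelled wild type (n = 3 libraries), and from ADRr cells of the same line (n = 3). The ADRr cells had been exposed to rising doses of Adriamycin (doxorubicin) and then grown from single cells, so that the group stands for the clone or clones that were picked, and selection by the drug and differences between clones cannot be told apart. Neither the labels nor the methods state whether the drug was present at harvest, and nothing says that the 3 libraries of a group came from separate cultures, so p-values measure the spread between these libraries, which may be technical.

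Doxorubicin traps topoisomerase II on DNA and leaves double-strand breaks. In non-homologous end joining the Ku70-Ku80 ring (XRCC6 and XRCC5) slides onto a broken end, recruits the kinase DNA-PKcs (PRKDC), and the ends are sealed by DNA ligase IV (LIG4) with its partner XRCC4. 53BP1 (TP53BP1) binds the chromatin around the break and shields the ends from resection, which favours joining over homologous recombination. MSH6 forms part of the complex that recognises mismatched bases after replication, and PARP1 binds nicked DNA and makes the poly(ADP-ribose) chains that recruit the scaffold XRCC1 with DNA ligase III.

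The libraries held 15983985 to 18272314 counts, and 15242 genes passed the filter on low counts, all 8 repair genes among them. The first principal component separated the groups and held 82.8% of the variance. The MDA-MB-231 genes VIM, CD44, MSN, ZEB1, AXL and CAV1 were expressed in every library, at 5.35 FPKM or more. By the rule given below, VIM, AXL and CAV1 were lower in ADRr cells, CD44 and ZEB1 were higher, and MSN was not called. Of 7 luminal markers ESR1, PGR and FOXA1 did not pass the filter, and the other 4 reached at most 12.4 FPKM, so the levels of the 2 sets overlap. Of these 4, EPCAM was higher in ADRr cells, ERBB2 and CDH1 were lower, and GATA3 was not called. None of 6 leukocyte markers passed, with at most 4 counts in a library. Of 20 proliferation genes 19 were lower in ADRr cells and none was higher (median log2 fold change -1.17), with a summed normalized count of 85352 to 88681 in the parent libraries and 34254 to 35045 in the ADRr libraries. By the rule given below, 29.6% of all genes tested were lower and 29.2% higher. At an unadjusted p under 0.05 edgeR gave 0 of the 20 as higher, and DESeq2 and limma called 0. The part of this fall in the repair gene results below was not tested.

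LIG4 was the one repair gene of the 8 that rose in ADRr cells, by 2.77-fold, while TP53BP1 fell by 43.9%, PARP1 by 32.0% and MSH6 by 17%. A gene was called when its adjusted p in edgeR's quasi-likelihood test was at most 0.05 and its fold change at least 1.2. By this rule 1 of the 8 was higher and 3 were lower, and 4 (PRKDC, XRCC5, XRCC6 and XRCC1) were not called. These are 12.5% and 37.5% of the 8, and 29.2% of the 15242 tested genes were higher and 29.6% lower by this rule. In bulk RNA, less of a transcript in each cell and fewer cells that hold it cannot be told apart. The median log2 fold change of the 8 genes was -0.21 and its median size 0.24, against -0.0061 and 0.46 over all genes tested. In 6 of the 8 every ADRr library lay below every parent library, and in LIG4 and XRCC1 every ADRr library lay above. The same held for 34.7% and 34.5% of all genes tested, respectively.

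The sequences before a listed start of 4 of the genes are shown because 2 of them (LIG4 and XRCC6) start head to head with a neighbour whose counts are given further on, and because the other 2 (TP53BP1 and PARP1) had the largest falls of the 8. Each runs 5' to 3' on the gene's own strand over the 250 bases before its first listed RefSeq start (GRCh38.p14), and capitals mark the letters of a searched motif: the GC box (GGGCGG), the CCAAT box (CCAAT) and letters bound by ETS factors (CCGGAAGT), each on either strand.
LIG4: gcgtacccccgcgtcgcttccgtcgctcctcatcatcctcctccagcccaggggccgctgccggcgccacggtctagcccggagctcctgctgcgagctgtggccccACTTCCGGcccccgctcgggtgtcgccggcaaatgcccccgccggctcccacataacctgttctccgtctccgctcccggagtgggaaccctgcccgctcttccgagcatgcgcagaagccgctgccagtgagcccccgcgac
XRCC6: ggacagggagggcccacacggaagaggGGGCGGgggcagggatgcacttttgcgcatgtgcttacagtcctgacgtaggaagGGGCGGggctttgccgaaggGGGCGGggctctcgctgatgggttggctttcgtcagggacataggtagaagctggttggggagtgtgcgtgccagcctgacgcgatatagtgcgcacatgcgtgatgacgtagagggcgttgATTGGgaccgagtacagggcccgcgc
TP53BP1: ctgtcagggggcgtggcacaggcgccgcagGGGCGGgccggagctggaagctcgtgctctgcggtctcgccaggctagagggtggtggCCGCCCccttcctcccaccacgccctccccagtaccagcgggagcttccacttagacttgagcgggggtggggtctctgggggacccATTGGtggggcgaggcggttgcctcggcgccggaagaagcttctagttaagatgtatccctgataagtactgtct
PARP1: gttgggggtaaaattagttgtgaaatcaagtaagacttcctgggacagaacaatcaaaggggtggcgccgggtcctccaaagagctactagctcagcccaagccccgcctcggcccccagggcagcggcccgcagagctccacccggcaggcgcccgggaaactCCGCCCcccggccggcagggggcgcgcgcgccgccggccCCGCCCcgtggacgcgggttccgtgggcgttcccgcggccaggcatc

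The LIG4 stretch (chr13:108218350-108218599, minus strand) holds ETS letters but neither a GC box nor a CCAAT box. LIG4 has other listed RefSeq starts, not printed here. Each of their windows holds a GC box or a CCAAT box, and some also hold the NRF1 motif. TP53BP1 (chr15:43510641-43510890, minus strand) has 2 GC boxes and 1 CCAAT box, PARP1 (chr1:226408094-226408343, minus strand) has 2 GC boxes, and XRCC6 (chr22:41621045-41621294, plus strand) has 3 GC boxes and 1 CCAAT box. Of 35116 RefSeq promoters (250 bases before to 50 after a start), 45% hold the GC box, 34.6% the CCAAT box and 4.14% the ETS letters, so the first 2 are common and the matches only describe these windows. E2F letters (TTTCGCGC, TTTGGCGC or TTTCCCGC, in 2.74% of promoters) and the NRF1 motif (in 5.78%) were also searched and are not in the 4 stretches printed. These shares also cover the 50 bases after a start, where XRCC6 does hold E2F letters (position 43). Promoters were matched for 6 of the 8 genes.

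The 3 subunits of DNA-PK, the kinase complex of Ku and DNA-PKcs, were at 0.861 to 0.914 of their parent level in ADRr cells. XRCC6 (chr22:41621119-41664048, GRCh38) had normalized counts of 7516, 8298 and 7577 in parent and 6849, 6682 and 6606 in ADRr cells. XRCC5 (chr2:216107464-216206303) had 5909, 6478 and 5642 in parent and 5182, 5022 and 5363 in ADRr cells. PRKDC, on chromosome 8, had 8450, 7696 and 7605 in parent and 7181, 7156 and 7381 in ADRr cells. In all 3 genes the ADRr libraries were the lower ones without overlap, by a small margin. The log2 fold change was -0.22 for XRCC6 (95% confidence interval -0.32 to -0.11, adjusted p = 5.8e-04 by edgeR), -0.21 for XRCC5 (-0.32 to -0.10, adjusted p = 0.0015) and -0.13 for PRKDC (-0.23 to -0.026, adjusted p = 0.027). These differences had an adjusted p under 0.05 but did not reach the 1.2-fold threshold. That of PRKDC was -0.084 without parent replicate 1 (adjusted p = 0.21), and its adjusted p was also over 0.05 without ADRr replicate 1 (0.13) or 2 (0.11) and with library size alone (0.076), where XRCC5 and XRCC6 stayed under 0.05. In the fit of all libraries the intervals of XRCC5 and XRCC6 reach past it.

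LIG4, which encodes the ligase of the last step (chr13:108207439-108218368, minus strand), went the other way. Its normalized counts were 249, 239 and 210 in parent cells and 698, 559 and 672 in ADRr cells, so the lowest ADRr library stood well above the highest parent library. The log2 fold change was 1.47 (SE 0.10, adjusted p = 1.7e-11 by edgeR), larger in size than that of 90.9% of the genes tested. XRCC4, the partner that stabilises the ligase, fell from 288 ± 35.5 to 189 ± 6.55 normalized counts (SD, n = 3; log2 fold change -0.61, adjusted p = 6.7e-05).

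TP53BP1 (chr15:43403061-43510728, minus strand) had normalized counts of 1313, 1248 and 1297 in parent and 738, 697 and 729 in ADRr cells. The 2 groups were far apart compared with their spread, and the log2 fold change was -0.83 (SE 0.065, adjusted p = 1.5e-10 by edgeR). Of the exon bases of TP53BP1, 28.7% are shared with TUBGCP4 on the opposite strand, a gamma-tubulin complex gene that also fell (802, 912 and 708 normalized counts in parent, 274, 230 and 266 in ADRr cells). The strand setting of the counting is not given in the sources used here, and without it reads from these shared bases cannot be told apart.

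MSH6 (chr2:47695530-47810101) had normalized counts of 2117, 2511 and 2190 in parent and 1847, 1835 and 1973 in ADRr cells. The highest parent library, replicate 2, stood above the other 5, and the groups did not overlap. The log2 fold change of -0.27 (SE 0.064, adjusted p = 8.0e-04 by edgeR) was just past the threshold of 0.26 in size. It was -0.20 without parent replicate 2, -0.24 without ADRr replicate 1 and -0.25 without ADRr replicate 2, and in each case the gene was no longer called. FBXO11, a ubiquitin ligase subunit gene on the opposite strand that shares 16.2% of the exon bases of MSH6, rose (log2 fold change 0.82, adjusted p = 2.9e-09).

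PARP1 (chr1:226360691-226408079, minus strand) had normalized counts of 5993, 5991 and 5949 in parent and 4052, 3940 and 4193 in ADRr cells. Its parent libraries were nearly level, and the log2 fold change was -0.56 (SE 0.048, adjusted p = 7.6e-10 by edgeR). XRCC1 (chr19:43543040-43580473, minus strand) had 368, 335 and 368 in parent and 396, 385 and 411 in ADRr cells. Every ADRr library was above every parent library for XRCC1, but its log2 fold change of 0.15 did not pass the test (95% confidence interval -0.034 to 0.34, adjusted p = 0.14). XRCC1 shares 15.5% of its exon bases with L34079.3 and 1.97% with L34079.2 on the opposite strand, and 6.48% with L34079.1 on the same strand, and all 3 had 0 counts in every library. Reads from shared bases may go uncounted in both genes, so the 0 counts do not show that the XRCC1 count was unaffected. The pseudogene copies of PARP1 and XRCC6 had at most 3 counts in a library.

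Per exon length the 8 genes spanned a wide range of levels. In parent cells the order by FPKM was XRCC6 (136 ± 7.46, SD, n = 3), XRCC5 (62.9 ± 4.48), PARP1 (47.7 ± 0.322), PRKDC (29.4 ± 1.81), MSH6 (11.8 ± 1.08), XRCC1 (5.91 ± 0.318), TP53BP1 (5.66 ± 0.157) and LIG4 (3.03 ± 0.269). XRCC1 and TP53BP1 overlapped there, and no other neighbours in the order did. In ADRr cells the first 5 places were the same, with XRCC6 at 117 ± 2.13, XRCC5 at 54.5 ± 1.94, PARP1 at 32.5 ± 1.11, PRKDC at 26.9 ± 0.527 and MSH6 at 9.83 ± 0.425 FPKM. LIG4 followed at 8.41 ± 0.989 FPKM, then XRCC1 at 6.59 ± 0.233 and TP53BP1 at 3.19 ± 0.104, with no overlap between neighbours. LIG4 thus moved from the last place to the sixth and TP53BP1 to the last. The length behind FPKM is that of all annotated exons of a gene, which lowers the level of a gene with many rarely used exons.

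The 5 ratios of FPKM between partner genes were compared between the groups with a two-sided exact permutation test, whose smallest possible p with 3 against 3 libraries is 0.10, so that no ratio could pass 0.05. The XRCC5/XRCC6 ratio of the 2 Ku subunits was 0.473, 0.470 and 0.448 in parent and 0.455, 0.452 and 0.489 in ADRr cells, and the groups overlapped (exact permutation p = 0.90, adjusted over 5 ratios 0.90). The log2 fold changes of the 2 subunits were -0.21 for XRCC5 and -0.22 for XRCC6.

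The other 3 ratios given here did not overlap between the groups. LIG4/XRCC4 was 0.547, 0.445 and 0.495 in parent and 2.26, 1.87 and 2.10 in ADRr cells, a difference of 2.07 on the log2 scale. XRCC1/LIG3 was 1.74, 1.56 and 1.92 in parent and 3.20, 3.23 and 3.42 in ADRr cells, a difference of 0.92. The log2 fold change was -0.77 for LIG3 and 0.15 for XRCC1. LIG3 shares 29.1% of its exon bases with RFFL and XRCC1 15.5% with L34079.3, so the XRCC1/LIG3 ratio is uncertain. PARP1/PARP2 was 3.36, 3.08 and 3.08 in parent and 3.55, 3.94 and 4.0 in ADRr cells, a difference of 0.27. Each had an exact permutation p of 0.10 (adjusted 0.17), the smallest this design allows.

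Of 11 other end joining genes 9 were tested, and 2 were higher and 2 lower (22.2% each). The shares among all genes tested were 29.2% higher and 29.6% lower. APLF, a histone chaperone that binds Ku and poly(ADP-ribose), rose from 83.8 ± 11 to 378 ± 28.6 normalized counts (SD, n = 3; log2 fold change 2.17, adjusted p = 7.2e-13), and the helicase and nuclease gene WRN rose with a log2 fold change of 0.56 (adjusted p = 5.1e-06). POLQ, the polymerase of theta-mediated end joining, fell from 573 ± 8.46 to 289 ± 18.7 (log2 fold change -0.99, adjusted p = 1.3e-09), as did XRCC4. The nuclease Artemis (DCLRE1C) was not called (log2 fold change 0.013, 95% confidence interval -0.18 to 0.20). NHEJ1, which encodes XLF, did not pass the filter, with 0 to 10 counts in a library, and 65.4% of its exon bases are shared with another annotated gene on the same strand. The median of the 9 was 0.013.

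Of 14 tested genes that act with 53BP1, 8 were called lower (57.1%) and 0 higher, with a median of -0.40. Among all genes tested, 29.6% were lower and 29.2% higher. At an unadjusted p under 0.05 edgeR gave 0 of the 14 as higher, and DESeq2 and limma called 0. H2AFX, the histone variant marked at breaks, fell from 4943 ± 522 to 2078 ± 163 normalized counts (SD, n = 3; log2 fold change -1.25, adjusted p = 3.0e-13), and NUDT16L1 (TIRR), which binds 53BP1 and keeps it from chromatin, fell from 251 ± 24.9 to 105 ± 16.2 (log2 fold change -1.25, adjusted p = 3.7e-08). The ubiquitin ligases RNF8 (-0.58) and RNF168 (-0.42), the mediator MDC1 (-0.38) and the kinase ATM (-0.43) were also called lower. RIF1, the effector that 53BP1 recruits, was not called (log2 fold change -0.15, 95% confidence interval -0.27 to -0.024). Neither were the shieldin genes SHLD2 (0.11), MAD2L2 (0.023), SHLD3 (-0.38, interval -0.88 to 0.12) and SHLD1 (-0.092, interval -1.07 to 0.89). SHLD1 had only 3 to 32 counts in a library, so its change was poorly measured. SHLD3 shares 17.4% of its exon bases with TRAPPC13 on the same strand, and its count is uncertain.

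In mismatch repair 5 of 9 other genes were lower (55.6%) and 1 was higher (11.1%), with a median of -0.33. The shares among all genes tested were 29.6% lower and 29.2% higher. The largest falls were those of the replication genes LIG1 (1806 ± 113 to 500 ± 14.1 normalized counts, SD, n = 3; log2 fold change -1.85, adjusted p = 2.8e-16) and PCNA (-1.45, adjusted p = 4.1e-16), which act in resynthesis, and of the exonuclease EXO1 (-1.40, adjusted p = 4.1e-12). PMS2, an endonuclease subunit of this route, was not called (0.0075), and neither was MSH3 (-0.26), which recognises larger loops. PMS2 has near-identical pseudogene copies and its count is uncertain. MLH3, a MutL homologue, rose (0.57, adjusted p = 2.8e-06).

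Of 23 other genes of single-strand break and base excision repair 14 were lower (60.9%) and 4 higher (17.4%), with a median of -0.42. Among all genes tested, 29.6% were lower and 29.2% higher. PARP2, the second PARP that responds to nicks, fell from 1077 ± 51.8 to 607 ± 40.9 normalized counts (SD, n = 3; log2 fold change -0.83, adjusted p = 1.3e-09), and LIG3, the ligase that XRCC1 carries, fell from 771 ± 47.9 to 452 ± 8.99 (-0.77, adjusted p = 1.3e-08). PARG, which removes poly(ADP-ribose), lay just past the threshold (-0.27, adjusted p = 0.0024). The largest falls were those of the glycosylases NEIL3 (-1.75, adjusted p = 2.2e-13) and NEIL1 (-1.46, adjusted p = 2.7e-08). The glycosylases MPG (0.46, adjusted p = 0.0026), MUTYH (0.40, adjusted p = 0.0032) and TDG (0.36, adjusted p = 1.5e-04) and the gap-filling polymerase POLB (0.32, adjusted p = 0.019) rose. For MPG the groups overlapped, with parent replicate 3 (374 normalized counts) above ADRr replicate 1 (368). LIG3 shares 29.1% of its exon bases with RFFL, MPG 27.3% with NPRL3, NEIL1 26.4% with MAN2C1 and MUTYH 14.1% with TOE1, all on the opposite strand, so their counts are uncertain.

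Over the 4 lists 55 of 57 genes were tested, of which 7 were higher and 29 lower, with a median of -0.38. Over all genes tested the shares were 29.2% and 29.6%. The median was -0.40 for the 53BP1 list, -0.33 for mismatch repair, -0.42 for the single-strand break list and 0.013 for end joining. That of the proliferation genes given above was -1.17. Any link between the proliferation genes and these lists was not tested. LIG1, PCNA and FEN1 also act in DNA replication.

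**Figure D1:**
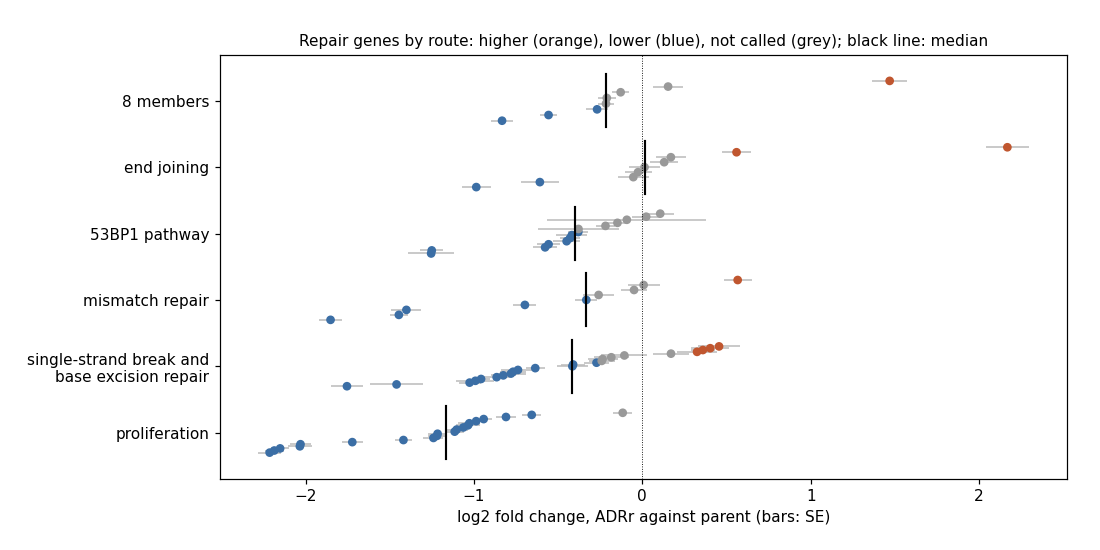
Log2 fold change of ADRr against parent cells (horizontal axis, bars: SE) for the 8 repair genes, the tested genes of the 4 other repair lists and the proliferation genes, with each gene a dot coloured by its call and a black line at the median of the list. LIG4 (1.47) and APLF (2.17) lie to the right, and the medians of the 53BP1, mismatch and single-strand break lists are -0.40, -0.33 and -0.42.

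Several of the 8 genes start head to head with another gene or overlap one, and these pairs did not all move together. ABHD13, an abhydrolase domain gene that starts 11 bases from LIG4 on the other strand in GENCODE 29, had normalized counts of 292, 279 and 308 in parent and 462, 360 and 430 in ADRr cells (log2 fold change 0.51, adjusted p = 1.4e-04 by edgeR). Both genes of this pair rose. The LIG4 stretch printed above holds the start of ABHD13 (chr13:108218379), and its ETS letters lie within ABHD13. DESI1, 23 bases from XRCC6 by the GENCODE 29 starts, had 800, 901 and 934 in parent and 1221, 1216 and 1149 in ADRr cells (0.44, adjusted p = 7.4e-06), while XRCC6 was lower in every ADRr library. The XRCC6 stretch printed above lies between the RefSeq starts of XRCC6 and DESI1, which are further apart than the GENCODE 29 starts.

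MCM4, a subunit of the replicative helicase whose start is 2 bases from that of PRKDC, fell from 4036 ± 120 to 1931 ± 47.6 normalized counts (SD, n = 3; log2 fold change -1.06, adjusted p = 4.2e-14), well beyond PRKDC (-0.13). MAP1A, 230 bases from TP53BP1, had 9.26 to 16.2 normalized counts and was not called (-0.19, adjusted p = 0.71). PINLYP lies over XRCC1 without sharing exon bases, and rose from 21.0 ± 7.10 to 62.4 ± 10.5 (log2 fold change 1.55).

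The 20 tested genes nearest to each repair gene, 10 on either side, also differed. They spanned 9.67 megabases around LIG4, 7.27 around MSH6 and 1.29 around TP53BP1. The shortest span was 0.793 megabases (XRCC6) and the longest 11.1 (PRKDC). Over all genes tested 29.2% were called higher and 29.6% lower. Around LIG4 13 were higher and 2 lower (median 0.63), and around TP53BP1 1 was higher and 12 were lower (median -0.44). Around MSH6 13 were higher and 2 lower (median 0.63), the opposite sign of MSH6 itself. The medians around PARP1 (0.14), XRCC5 (0.035), XRCC6 (0.021), XRCC1 (-0.057) and PRKDC (-0.059) were closer to 0.

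Among 12609 tested protein-coding genes, the one whose log2 CPM followed a repair gene most closely over the 6 libraries was ESCO1 for LIG4, TRAM2 for TP53BP1 and PTPRG for PARP1 (Pearson r of 1.00 each when rounded), XRCC1 had FAM104A (0.998), XRCC5 had USO1 (0.997) and PRKDC had F2R (0.991). The 6 points fall into 2 groups of 3 libraries, and 279 genes had an r of at least 0.99 with LIG4, 725 with TP53BP1 and 721 with PARP1.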

How the data were processed

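The labels give 6 RNA-seq libraries, 3 of parent MDA-MB-231 cells and 3 of ADRr cells. The series record also mentions time points that no sample label names. The authors deposited whole-number counts per gene, not normalized, and FPKM values. Per the labels' processing notes these came from fastp, HISAT2 2.0.5 and featureCounts 1.5.0-p3 on GRCh38. All 58735 identifiers and exon lengths matched GENCODE 29. The study's methods name the CORALL kit for the libraries, while the labels name only the kit used for clustering and a different input of RNA. The strand setting and the treatment of reads that map to several places are not given in the sources used here. Reads in overlapping exons or in near-identical copies can therefore be lost or shared; TP53BP1, MSH6 and XRCC1 have such exons.

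Counts were analysed with edgeR 4.0.16 in R 4.3.3: filterByExpr, TMM normalization, and the quasi-likelihood test over all 15242 genes kept, with Benjamini-Hochberg adjustment. The fold threshold of 1.2 follows the study's methods, where the scale of the threshold is unclear, so 1.2 on the log2 scale was an alternative. Normalized counts are counts scaled by TMM library size. The FPKM of the authors were used for levels and ratios. Alternatives were DESeq2 1.42.0, limma-trend 3.58.1 on log2(FPKM + 1) and log2(FPKM + 0.1), other scalings and filters, a replicate block and each library left out. Total counts of 15983985 to 18272314 per library put each of the 8 genes at over 200 counts in every library. The fit was tested on simulated data with 200 changed genes, of which edgeR recovered 79.5%, and 5.92% of its calls were false. In the real data 4451 genes were called higher and 4507 lower. The simulation therefore does not test the normalization where so many genes differ. Besides the 8 genes, their known partners, the genes that overlap or adjoin them, the most alike gene of each, and up to 2 called genes with the largest rise and 2 with the largest fall of each repair list were named. Some genes named by this rule, and 1 of the 5 ratios, are not reported here. RNF8, RNF168, MDC1, ATM, TDG and FEN1 were named after their values were seen. The 8 genes and the lists were chosen with earlier results of these data known.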

Additional observations from a re-analysis of the deposited data

How the results depend on the processing

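The direction of the log2 fold change of all 8 repair genes was kept under every alternative. MSH6 was the one call of the 8 that depended on small choices: it lost its call with library size alone (-0.24), with at least 10 counts in every library (-0.26) and with limma on FPKM (-0.24 with a pseudocount of 1, -0.26 with 0.1), and without parent replicate 2 or ADRr replicate 1 or 2 (-0.20 to -0.25). The adjusted p of PRKDC, which was not called, was also over 0.05 with the replicate block (0.068) and by limma on FPKM (0.081 to 0.12). With the adjusted p alone 6 of the 8 genes were lower, PRKDC, XRCC5 and XRCC6 being added. With a threshold of 1.2 on the log2 scale 0 of the 8 were lower, LIG4 remained higher, 1 end joining gene was higher and 0 lower, 2 genes of the 53BP1 pathway were lower, 0 of mismatch repair were higher and 3 lower, 0 of single-strand break and base excision repair were higher and 2 lower, 10 proliferation genes were lower, and over all genes 1114 were higher and 972 lower, against 4451 and 4507. By limma on log2(FPKM + 1) without a filter, 2 genes of single-strand break and base excision repair were higher instead of 4. The difference in the XRCC5/XRCC6 ratio (0.0049 on the log2 scale) turned negative without parent replicate 3 or ADRr replicate 3 and ranged from -0.031 to 0.025 over the libraries left out. The replicate numbers did not pair the samples (correlations of deviations 0.0074, -0.021 and -0.046), and with a replicate block 1 of the 8 genes was still higher and 3 lower. With 3 libraries per group the exact permutation test of a ratio could not give a p under 0.05, and FPKM of genes with overlapping exons cannot be separated by strand.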
